A study of Mus with 6 samples.

Results

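The genes described here are 6 Krüppel-like factors (KLFs), Klf2, Klf4, Klf6, Klf9, Klf10 and Klf15, in mouse lens epithelial cells (LECs) at once after and 6 h after an injury that models cataract surgery. They were taken by name from the 55421 genes counted, and all 6 passed the low-count filter that 16810 genes passed. The set was proposed because its genes move in opposite directions in this comparison, so the number that moved and their directions are a description of the set and not a test of it.

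The study removed the fiber cells from a lens through an anterior incision, which leaves the capsule and the LECs attached to it in the eye, and asked how LECs respond within 6 h post cataract surgery (PCS). RNAseq was done on 6 libraries, 3 from capsules taken at 0 h PCS and 3 from capsules taken at 6 h PCS. All mice were wildtype C57BL/6, and the labels give an age of 2 months, while the methods of the study give an older range. Each library was a pool of 5 lens capsules. The design text states that the first eye was operated on, that the other eye followed 6 h later, and that both capsules were then harvested. A 0 h capsule was therefore taken from a mouse whose other eye had been injured 6 h earlier, and both capsules of a mouse were collected at its sacrifice. Which pools hold eyes of the same mice is not stated. RNA was taken from whole capsules, so a library holds RNA of every cell left on the capsule, and in such bulk samples fewer cells of a type and less RNA per cell cannot be told apart.

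KLFs are transcription factors that bind GC-rich and CACCC sequences through 3 zinc fingers at the carboxyl end. The fingers are nearly alike across the family, and the members differ in the rest of the protein, which recruits cofactors. KLF2, KLF4, KLF5, KLF6 and KLF7 are mostly activators that work with histone acetyltransferases, KLF3, KLF8 and KLF12 bind the corepressor CtBP, and KLF9, KLF10 and KLF16 bind the corepressor Sin3. KLF15 stands outside these groups and is known for amino acid and glucose metabolism. KLF2 and KLF4 are known as quiescence factors of endothelium, KLF4 also as a factor of surface epithelia such as the cornea, KLF6 as a gene induced by injury, KLF9 and KLF15 as targets of the glucocorticoid receptor and KLF10 as an early TGF-beta target.

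The libraries held 18039974 to 24701039 counts on genes. In 6 h replicate 1, 33.6% of read pairs were on genes, against 39.5% to 41.2% in the other libraries. Its top gene held 23.3% of its gene counts, against 14.8% to 17.7% in the others. Levels of a gene are given as CPM, its counts per 1000000 gene counts after TMM scaling, and comparisons between genes as FPKM, which also divides by exon length. A differentially expressed gene (DEG) had a Benjamini-Hochberg adjusted p of at most 0.05 in the quasi-likelihood test of edgeR and a fold change above 2. Of the 16810 genes, 762 were upregulated and 138 were downregulated at 6 h PCS, while scaling on library size alone gave 572 and 627. That scaling moved the median log2 fold change of all genes from -0.0030 to -0.32. With 3 libraries per time point an exact permutation test has a smallest two-sided p of 0.10. The p-values given are therefore those of the model fitted across all genes. They set the difference between time points against the spread between these pools. The model treats the pools as independent, although pools of both time points may hold eyes of the same mice.

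All 6 KLF genes were DEGs, where 5.35% of the genes tested were. Klf2, Klf4, Klf6, Klf9 and Klf10 were upregulated, beside a background of 4.53%, and Klf15 was downregulated, beside 0.821%. In each of the 6 genes the CPM values of the time points did not overlap, as in 30.6% of all genes tested. All 6 also met the limits the study used for biological significance, a mean level of over 2 FPKM at 0 h or 6 h PCS and a difference of over 2 FPKM between them.

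Klf2, an activator best known from endothelial cells and T cells, had the greatest fold change of the 6. It lies at chr8:72319062-72321654 (GRCm38, RefSeq gene span). Its CPM at 0 h PCS was 2.62, 1.82 and 1.25 in replicates 1 to 3, from 61, 50 and 29 counts. At 6 h PCS it was 40.4, 39.0 and 95.9. The lowest 6 h library thus lay far above the highest 0 h library, and replicate 3 stood above the other two 6 h libraries. The log2 fold change was 4.94 (SE 0.48), which is a 30.7-fold increase, with an adjusted p of 0.0014 in edgeR's quasi-likelihood test. The 0 h counts are small, and the exact Poisson 95% interval of the lowest, 0.838 to 1.80 CPM, covers counting error only.

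Klf4, an activator that also has a repressor domain and is one of the reprogramming factors, lies at chr4:55527137-55532475. At 0 h PCS its CPM was 98.9, 52.0 and 55.4. At 6 h PCS it was 383, 458 and 857. Each 6 h library was above each 0 h library, and the 6 h libraries differed widely, with replicate 3 highest. Klf4 rose by 3.04 on the log2 scale (SE 0.40), or 8.23-fold, with an adjusted p of 0.0059 in edgeR's quasi-likelihood test.

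Klf6, an activator induced early after injury in several tissues, lies at chr13:5861489-5870393. It was measured at 163, 90.6 and 69.5 CPM at 0 h PCS. The 6 h libraries gave 308, 316 and 598 CPM. Replicate 1 was the highest 0 h library and replicate 3 the highest 6 h library, and the groups did not overlap. The log2 fold change was 1.92 (SE 0.41), or 3.78-fold, and the adjusted p of edgeR's quasi-likelihood test was 0.036. Klf6 was no longer a DEG without 0 h replicate 2 (adjusted p = 0.103), 0 h replicate 3 (0.0541), 6 h replicate 1 (0.0938), 6 h replicate 2 (0.0614) or 6 h replicate 3 (0.0611), with log2 fold changes of 1.53 to 2.08, and it stayed one without 0 h replicate 1, at 2.34.

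**Figure D1:**
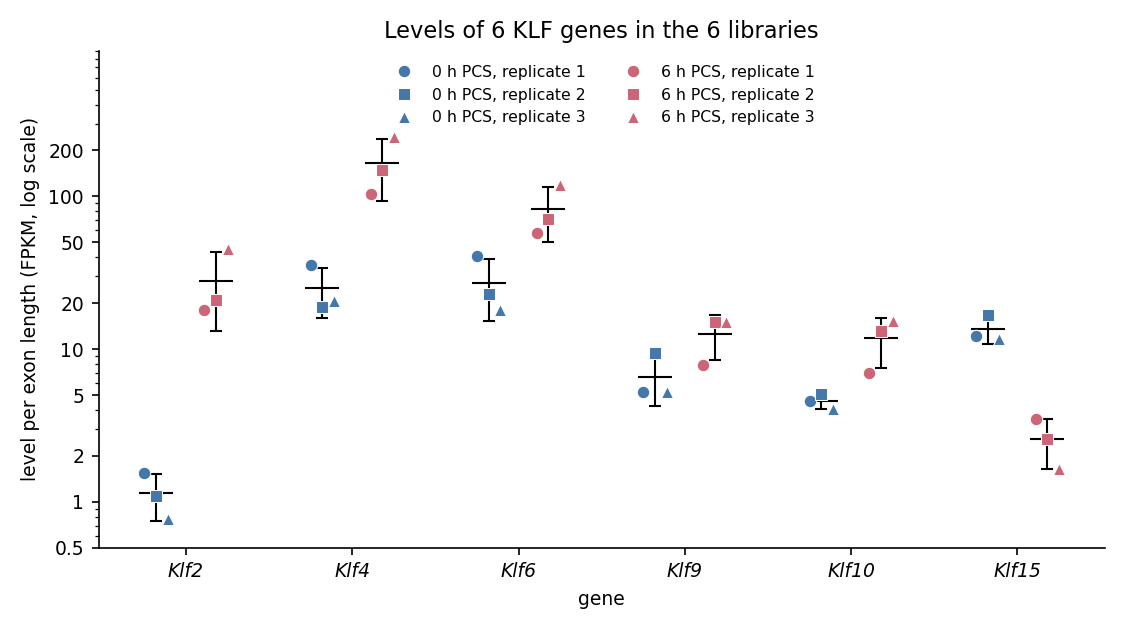
Level of each KLF gene in FPKM on a log axis, with 1 point per library (0 h PCS blue, 6 h PCS red, symbols for replicates 1 to 3) and black bars for the mean and SD of 3 libraries. Klf15 is the gene whose 6 h points, 1.65 to 3.50 FPKM, lie below its 0 h points, 11.7 to 16.6 FPKM, and the points of Klf9 overlap on this scale.

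Klf9, a Sin3-binding repressor that responds to glucocorticoids and thyroid hormone, lies at chr19:23141226-23168129. Its CPM was 23.2, 40.7 and 21.9 at 0 h PCS. It was 45.6, 73.7 and 82.2 at 6 h PCS. The groups came close to each other, with 0 h replicate 2 at 40.7 and 6 h replicate 1 at 45.6, and without TMM scaling they overlapped, at 9.39 and 7.83 FPKM. Klf9 had the smallest change of the 6, 1.23 on the log2 scale (SE 0.29) or 2.35-fold, with an adjusted p of 0.037 in edgeR's quasi-likelihood test. Scaling on library size alone gave 0.93 with an adjusted p of 0.0707. Klf9 was not a DEG without 0 h replicate 1 (adjusted p = 0.138), 0 h replicate 3 (0.103), 6 h replicate 2 (0.120) or 6 h replicate 3 (0.111), with log2 fold changes of 1.06 to 1.14. The RefSeq span of the microRNA gene Mir1192, chr19:23149431-23149551, lies inside that of Klf9.

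Klf10, a Sin3-binding repressor first described as a TGF-beta inducible early gene, lies at chr15:38291464-38300711. Its CPM was 17.5, 19.2 and 14.8 at 0 h PCS. It reached 35.2, 55.7 and 72.6 at 6 h PCS. The 0 h libraries were tightly grouped and the 6 h libraries spread more widely. Klf10 rose by 1.67 on the log2 scale (SE 0.25), or 3.18-fold, with an adjusted p of 0.0038 in edgeR's quasi-likelihood test. It stayed a DEG with any library left out. The RefSeq span of the long noncoding RNA Gm35248, chr15:38298747-38343139, overlaps that of Klf10. The strand setting of the counting is not given in the sources used here, so reads from the shared stretch cannot be assigned to either gene.

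Klf15, known as an activator of amino acid catabolism and of glucocorticoid-dependent programs, lies at chr6:90461043-90491803 and changed in the other direction. Its CPM was 31.3, 41.8 and 28.4 at 0 h PCS. At 6 h PCS it was 11.8, 7.28 and 5.24, from 176, 162 and 87 counts. The highest 6 h library was below each 0 h library. Klf15 fell by 2.06 on the log2 scale (SE 0.29), or 4.18-fold, with an adjusted p of 0.0029 in edgeR's quasi-likelihood test. The fall held with any library left out, with log2 fold changes from -2.43 to -1.83.

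Per exon length, the order of the KLF genes differed between the time points. At 0 h PCS Klf6 (27.2 ± 11.8 FPKM, SD, n = 3) and Klf4 (25.04 ± 8.98) were at the top and changed places between libraries. Klf15 came next with 13.5 ± 2.72 FPKM, below both in each library and above Klf9 (6.62 ± 2.40) in each library. Klf10 was at 4.58 ± 0.53 FPKM and Klf2 was lowest of the 6, at 1.14 ± 0.39.

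At 6 h PCS Klf4 led with 166 ± 72.8 FPKM, above Klf6 (82.8 ± 32.3) in 3 of 3 libraries although their ranges overlapped. Klf2 had moved from the last place to the third, at 28.1 ± 15.1 FPKM. Klf9 (12.6 ± 4.16) and Klf10 (11.8 ± 4.30) did not differ beyond their spread. Klf15 was now lowest, at 2.57 ± 0.93 FPKM.

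Ratios of 2 genes within a library do not depend on its scaling. Klf4 over Klf6 in FPKM was 0.873, 0.827 and 1.15 at 0 h PCS and 1.79, 2.09 and 2.06 at 6 h PCS, so each 6 h library was further towards Klf4 than each 0 h library. Klf9 and Klf15, both known to be bound by the glucocorticoid receptor, shifted against each other. Klf9 over Klf15 was 0.431, 0.565 and 0.447 at 0 h PCS and 2.24, 5.86 and 9.09 at 6 h PCS. Of the summed FPKM of the 6 genes, Klf15 made up 12.3% to 22.4% in the 0 h libraries and 0.371% to 1.76% in the 6 h libraries. The share of Klf4 was 25.6% to 35.5% in the former and 52.4% to 55.6% in the latter.

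The rest of the family was followed by count. Of 11 further KLF genes, 5 could be tied to an identifier and were tested, and the others (Klf1, Klf11, Klf12, Klf13, Klf14 and Klf17) were not analysed here. Symbols come from tables that lean towards changed genes. Of the 5, 1 was upregulated and none was downregulated, beside the backgrounds of 4.53% and 0.821%. At an unadjusted p under 0.05, 2 were higher and 0 lower, and DESeq2 called 1 up and 0 down. Their median log2 fold change was 0.79, against -0.0030 over all genes.

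Klf7, an activator close in sequence to Klf6 and known from neurons and fat cells, was the DEG among them. It stood at 27.5, 22.3 and 25.8 CPM at 0 h PCS and at 59.9, 84.9 and 92.5 CPM at 6 h PCS, without overlap. The log2 fold change was 1.65 (SE 0.19) and the adjusted p of edgeR's quasi-likelihood test was 8e-04. Klf16, a Sin3-binding repressor, was at 13.6 to 17.4 CPM at 0 h PCS and 20.9 to 29.5 CPM at 6 h PCS. Its log2 fold change of 0.79 had an adjusted p of 0.037 in edgeR's quasi-likelihood test, which passed that limit but not the fold limit.

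Klf5, an activator of proliferating epithelia, ranged from 3.13 to 23.3 CPM at 0 h PCS and from 15.8 to 27.6 CPM at 6 h PCS, and these ranges overlapped. Its log2 fold change was 0.80 (SE 0.69), and without 0 h replicate 3 it was 1.69, with neither value past the test. The CtBP-binding repressors tested, Klf3 and Klf8, were not DEGs. Klf3 was at 22.0 to 34.1 CPM at 0 h PCS and 25.2 to 33.4 CPM at 6 h PCS, with a log2 fold change of -0.02 (SE 0.20). Klf8 was low in both groups, at 0.817 to 3.11 CPM and 0.873 to 2.23 CPM.

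**Figure D2:**
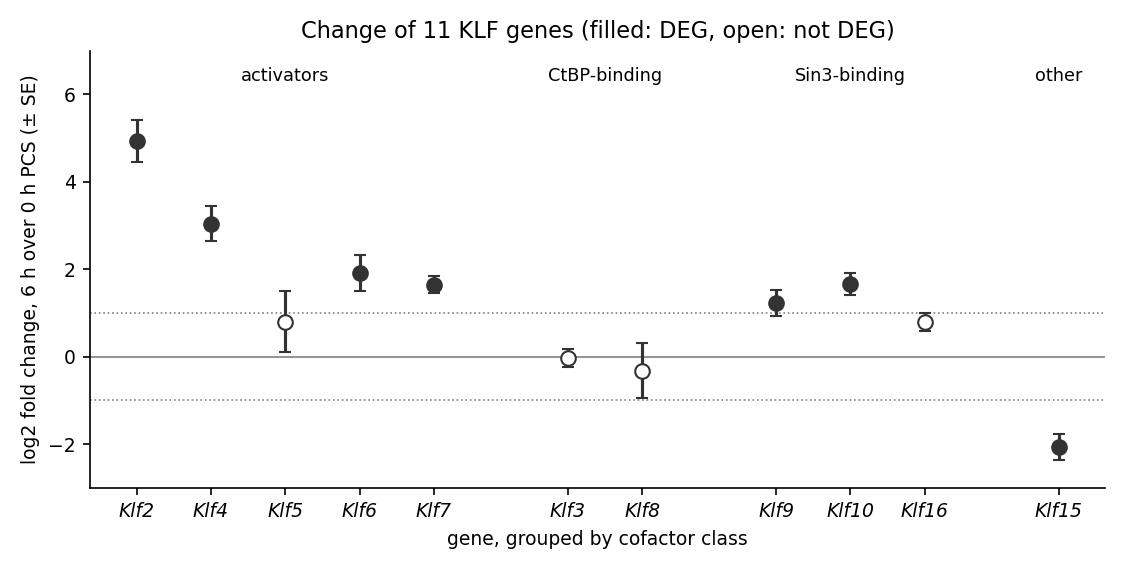
Log2 fold change of 6 h over 0 h PCS with its SE for the 11 KLF genes tested, grouped by the cofactor their proteins are known to bind, with filled points for DEGs and dotted lines at a fold change of 2. Filled points above 1 are 4 of 5 activators (Klf2, Klf4, Klf6 and Klf7) and 2 of 3 Sin3-binding repressors (Klf9 and Klf10), both CtBP-binding genes have open points, and Klf15 is the filled point below -1. Klf7 is the filled point that is not among the 6 genes chosen, and 5.35% of all genes tested were DEGs.

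The 6 genes did not vary alike among replicates. At 0 h PCS replicate 1 was highest for Klf2, Klf4 and Klf6, while replicate 2 was highest for Klf9, Klf10 and Klf15. At 6 h PCS replicate 3 was highest for the 5 genes that rose and lowest for Klf15. Replicate 1 was lowest for Klf4, Klf6, Klf9 and Klf10 and highest for Klf15. The 15 immediate early genes tested are transcribed within minutes of a stimulus without new protein synthesis. They mostly shared the highest libraries of Klf2, Klf4 and Klf6. The activator Klf5 did not, being highest at 0 h PCS in replicate 3. All 15 were highest at 0 h PCS in replicate 1, and 13 were highest at 6 h PCS in replicate 3. Their summed level was 1283, 763 and 387 CPM in 0 h replicates 1 to 3, and 8093, 6268 and 12297 CPM at 6 h PCS.

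In that list 11 genes were upregulated and none was downregulated, beside 4.53% and 0.821% of all genes tested. The median log2 fold change of the list was 3.35. All 15 had an unadjusted p under 0.05. All 15 also had no overlap between time points, as did 30.6% of all genes tested. DESeq2 called all 15 up, where it called 1075 of 16810 genes up. The largest were Fosb (7.03), a subunit of AP-1, Nr4a1 (3.92), an orphan nuclear receptor, and Zfp36 (3.87), which speeds decay of AU-rich mRNAs. Fosb was not a DEG without 0 h replicate 3 (adjusted p = 0.055) or without 6 h replicate 1 (0.051), and Nr4a1 was not one without 0 h replicate 3 (0.051). With any library left out the log2 fold change was 6.56 to 7.56 for Fosb and 3.26 to 4.22 for Nr4a1. Egr1 (3.60, adjusted p = 0.0602) and Fos (3.72, adjusted p = 0.0599) had large changes that edgeR's quasi-likelihood test did not call here. The study, with an older edgeR version, lists Egr1 as differentially expressed. Without 0 h replicate 1 Fos was a DEG, at 4.68 (adjusted p = 0.0034), and without 0 h replicate 3 Egr1 was one, at 3.14 (adjusted p = 0.0021). Without robust estimation both were DEGs. In both, 0 h replicate 1 was well above the other 0 h libraries, at 228 CPM for Egr1 against 144 and 35.4, and at 202 CPM for Fos against 66.6 and 37.7.

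Markers of other cells also differed between replicates. The 4 pigment cell markers tested, Tyr, Tyrp1, Dct and Pmel, had summed levels of 209, 63.8 and 51.4 CPM in the 0 h libraries. In the 6 h libraries the sums were 77.4, 456 and 1965 CPM. The libraries with the most pigment signal at each time point, 0 h replicate 1 and 6 h replicate 3, were also those with the most Klf2, Klf4 and Klf6. This was not particular to pigment cells, since the sums of the stroma and smooth muscle markers (236 and 619 CPM) and of the leukocyte markers (22.6 and 32.3 CPM) were also highest in these libraries. None of the 4 was a DEG by edgeR's quasi-likelihood test or DESeq2, 0 had an unadjusted p under 0.05, and none was at 0 counts. Without both libraries, Klf2 (log2 fold change 4.68), Klf4 (2.97), Klf6 (1.96), Klf10 (1.42) and Klf15 (-1.89) were DEGs, with adjusted p of 0.00085, 0.00085, 0.0038, 0.046 and 0.024 in edgeR's quasi-likelihood test. Klf9, at 0.93 with an adjusted p of 0.296, was not.

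**Figure D3:**
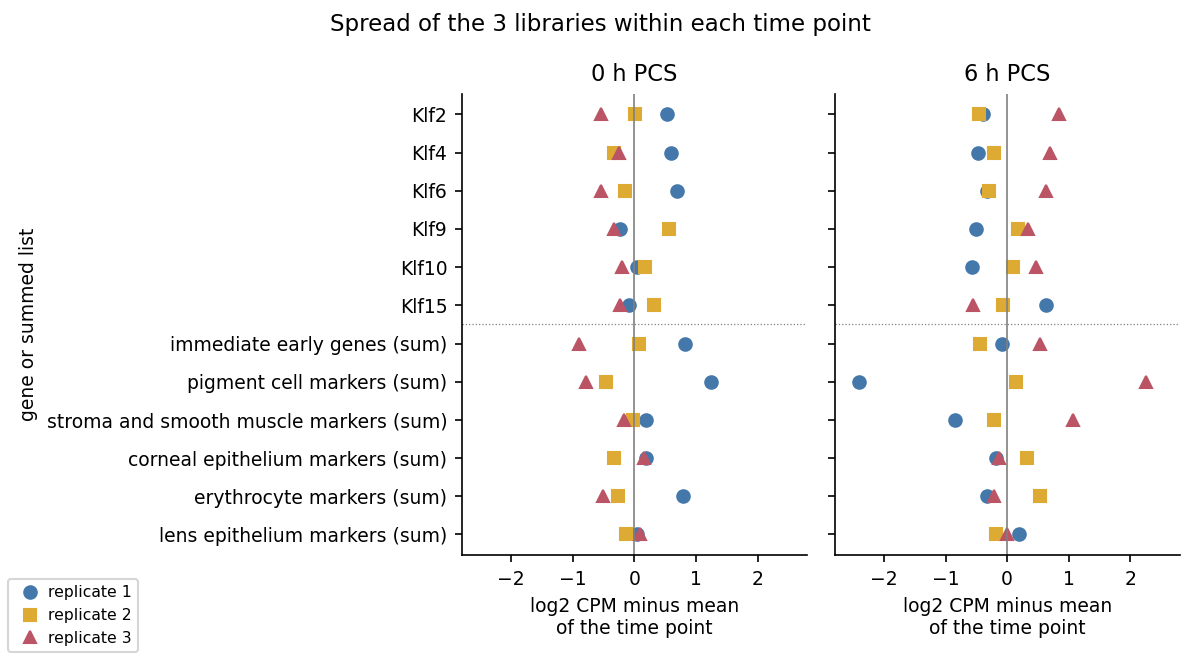
Log2 CPM of each library minus the mean of its time point, for the 6 KLF genes and for summed lists, at 0 h PCS (left) and 6 h PCS (right), with symbols for replicates 1 to 3. Replicate 1 at 0 h PCS and replicate 3 at 6 h PCS lie to the right for Klf2, Klf4, Klf6, the immediate early genes and the pigment cell markers.

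KLF2 and KLF4 are abundant in endothelium and KLF2 in lymphocytes, so markers of these cells were set beside them. The 4 endothelium markers tested summed to 4.10 to 26.3 CPM at 0 h PCS and 19.97 to 36.9 CPM at 6 h PCS, and 0 of 4 were DEGs (2 with an unadjusted p under 0.05, 2 by DESeq2). Kdr, the VEGF receptor gene, gave most of this sum, with 8.78, 25.03 and 3.15 CPM at 0 h PCS and 32.02, 16.5 and 13.9 CPM at 6 h PCS, and its groups overlapped. The defining markers Pecam1 and Cdh5 were lower in level and their groups did not overlap. Pecam1 was at 0.518 to 1.16 CPM and 1.75 to 4.76 CPM, with a log2 fold change of 1.98 (adjusted p = 0.064 in edgeR's quasi-likelihood test). Cdh5 was at 0.0863 to 0.387 CPM and 0.940 to 4.76 CPM, with one of 3.33 (adjusted p = 0.053). Its values rest on few counts, 9, 5 and 2 at 0 h PCS and 14, 23 and 79 at 6 h PCS. The groups of Tek overlapped, with a log2 fold change of 0.81 (adjusted p = 0.581 in edgeR's quasi-likelihood test). The 6 leukocyte markers summed to 13.5 to 22.6 CPM and 16.8 to 32.3 CPM. Of them 1, Cd68, was upregulated, beside 4.53% of all genes tested. The highest of the others were Csf1r (log2 fold change -0.11) and Lyz2 (-0.16). Ptprc, which encodes CD45, was at 0.130 to 2.15 CPM and 1.54 to 3.24 CPM.

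KLF4 and KLF5 are also high in corneal epithelium. The 3 corneal markers summed to 348 to 495 CPM at 0 h PCS and 318 to 451 CPM at 6 h PCS, most of it Aldh3a1, and 0 of 3 were DEGs (at an unadjusted p under 0.05, 2 were higher and 1 lower, and DESeq2 called 2 up). This sum joins genes of opposite direction. It mostly follows Aldh3a1 and so does not give the level of corneal RNA. Aldh3a1, a corneal crystallin, was at 347 to 481 CPM at 0 h PCS and 231 to 347 CPM at 6 h PCS, with a log2 fold change of -0.64 (adjusted p = 0.0725 in edgeR's quasi-likelihood test). The corneal keratin Krt12 was at 0.437 to 7.01 CPM at 0 h PCS and 44.2 to 65.8 CPM at 6 h PCS without overlap, with a log2 fold change of 4.23 and an adjusted p of 0.0792 in edgeR's quasi-likelihood test. Krt5, a keratin of basal epithelium, was at 0.328 to 7.70 CPM and 24.9 to 38.4 CPM, also without overlap, with a log2 fold change of 3.21 (adjusted p = 0.146). All 5 erythrocyte markers were upregulated, beside 4.53% of all genes tested. Their sum was 7.94 to 19.5 CPM at 0 h PCS and 73.5 to 133 CPM at 6 h PCS. The 5 stroma and smooth muscle markers summed to 185 to 236 CPM and 164 to 619 CPM, and 0 of 5 were DEGs (2 with an unadjusted p under 0.05, 1 by DESeq2). Without the pair of libraries left out above, 6 h replicate 2 still held 456 CPM of pigment cell markers against 63.8 and 51.4 CPM at 0 h PCS. The part of pigment cell, endothelial, leukocyte, corneal, erythrocyte and stromal RNA in the KLF changes was not tested. The lens epithelium markers Foxe3, Pax6, Sox2, Epha2 and Prox1 were present throughout, with sums of 1291 to 1515 CPM and 951 to 1228 CPM. The median log2 fold change of these 5 markers was -0.51. Epha2, a receptor tyrosine kinase, was upregulated (1.21, adjusted p = 0.013 in edgeR's quasi-likelihood test). The transcription factor genes Prox1 (-0.75, adjusted p = 0.012) and Sox2 (-0.70, adjusted p = 0.015) were lower at 6 h PCS without overlap and passed that test but not the fold limit. Pax6 (-0.51, adjusted p = 0.156) and Foxe3 (0.28, adjusted p = 0.249) did not pass it. Lens fiber markers were not analysed here.

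Genes upstream and downstream of the KLFs were described from lists of known relations. Of all genes tested, 4.53% were upregulated, 0.821% were downregulated and 30.6% had no overlap between time points. The share of all genes with an unadjusted p under 0.05 was not counted. In the glucocorticoid list 6 genes were tested, 1 was downregulated and 0 were upregulated, and the median log2 fold change was -0.22. Fkbp5, a chaperone of the glucocorticoid receptor and a standard readout of it, was at 39.5, 65.2 and 41.2 CPM at 0 h PCS and 20.1, 18.8 and 17.05 CPM at 6 h PCS. It fell by 1.38 on the log2 scale (SE 0.21), with an adjusted p of 0.0040 in edgeR's quasi-likelihood test. Fkbp5 thus changed in the direction of Klf15 and not of Klf9. It shared with both its highest 0 h library, replicate 2. That library was also the highest for Klf10 and for clock genes such as Ciart and Dbp. Of the glucocorticoid list, Sgk1 and Nr3c1 were highest in other 0 h libraries.

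The other genes of this list did not pass the test. Sgk1, a kinase of ion transport, had a log2 fold change of 0.75 and the clock gene Per1 one of 0.41. Tsc22d3, which encodes GILZ, and Zbtb16, named here after their values were seen, had values of -0.81 and -0.89 with adjusted p of 0.0793 and 0.0772 in edgeR's quasi-likelihood test, and were also highest at 0 h PCS in replicate 2. The receptor gene Nr3c1 was at 50.6 to 58.8 CPM and 66.7 to 74.8 CPM, with a log2 fold change of 0.37 (adjusted p = 0.122).

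KLF9, KLF10 and KLF15 are outputs of the circadian clock in several tissues. In the clock list 10 genes were tested, with a median of -0.48. Of these 2 were downregulated and none upregulated, beside 0.821% and 4.53% of all genes. Without overlap between time points, 6 were lower and 2 higher at 6 h PCS, where 30.6% of all genes had no overlap. Ciart, a repressor of the clock, was at 16.5, 24.2 and 22.4 CPM at 0 h PCS and 5.71, 1.75 and 4.28 CPM at 6 h PCS, and it fell by 2.44 on the log2 scale (SE 0.39, adjusted p = 0.0054 in edgeR's quasi-likelihood test). Tef, of the PAR bZIP factors that clock genes drive, fell by 1.05 (adjusted p = 0.012), but was not a DEG without 0 h replicate 1 (-0.96, adjusted p = 0.068) or without 6 h replicate 3 (-0.84, below the fold limit). The other members of this trio, Dbp (-0.83, adjusted p = 0.0075) and Hlf (-0.67, adjusted p = 0.011), named after their values were seen, passed the same test but not the fold limit. Per1 and Nr1d1, the highest of those that were not DEGs, had log2 fold changes of 0.41 and 0.28. Both capsules of a mouse were harvested together, and the hour of day is not given in the sources used here.

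Of 8 metabolic genes known to be driven by KLF15, 2 were tested and 0 were DEGs by edgeR's quasi-likelihood test or DESeq2, although both had an unadjusted p under 0.05. Prodh, the first enzyme of proline breakdown, was at 41.1 to 42.1 CPM at 0 h PCS and 21.5 to 27.4 CPM at 6 h PCS. Its log2 fold change of -0.80 (SE 0.15) had an adjusted p of 0.012 in edgeR's quasi-likelihood test, so it missed the fold limit alone. Bckdha, a subunit of the branched-chain ketoacid dehydrogenase, had a log2 fold change of -0.47 (adjusted p = 0.171) and no overlap between time points.

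Klf10 is an early gene of TGF-beta signaling. In that list of 6 tested genes 1 was upregulated and none was downregulated, beside 4.53% and 0.821% of all genes. The median was 0.80. The ligand gene Tgfb2 was at 433 to 521 CPM at 0 h PCS and 900 to 1188 CPM at 6 h PCS, and it rose by 1.09 on the log2 scale (SE 0.16, adjusted p = 0.0029 in edgeR's quasi-likelihood test). The rise was below the fold limit without 6 h replicate 3 (0.95) and with scaling on library size alone (0.77). Smad7, the inhibitory SMAD that TGF-beta induces, had a log2 fold change of 0.84 (adjusted p = 0.0077), below the fold limit. Skil, another feedback inhibitor, had one of 0.77 (adjusted p = 0.0553).

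KLF2 is induced through ERK5 and MEF2 in endothelium. In that list 0 of 4 tested genes were DEGs by edgeR's quasi-likelihood test or DESeq2, 2 had an unadjusted p under 0.05, and the median was 0.59. Mef2d had a log2 fold change of 0.68 (adjusted p = 0.0655 in edgeR's quasi-likelihood test) and Map3k2 one of 0.50 (adjusted p = 0.0909). Of the KLF cofactors and ubiquitin ligases, only Fbxw7, which marks several KLFs for degradation, was tested, with a log2 fold change of 0.58 (adjusted p = 0.0887).

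Of the endothelial genes that KLF2 and KLF4 regulate, 3 were tested, 0 were DEGs (2 with an unadjusted p under 0.05, 2 by DESeq2) and the median was 2.48. Vcam1, which they repress in endothelium, was at 7.25 to 8.05 CPM at 0 h PCS and 20.7, 76.9 and 181 CPM at 6 h PCS. Thbd, the thrombomodulin gene they activate, was at 7.72 to 10.2 CPM and 13.0, 40.2 and 103.9 CPM. Their adjusted p was 0.0771 and 0.141 in edgeR's quasi-likelihood test. Without 6 h replicate 1 both were DEGs, at 4.06 and 2.94, and without 6 h replicate 3 neither was, at 2.67 and 1.51. Both rank the 6 h libraries as the pigment cell markers do, an order that Klf4, Klf6, Klf9 and Klf10 share and that is reversed in Klf15.

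Among cell cycle genes tied to KLF4 and KLF6, 3 were tested, with a median of -0.11. Of these 1 was upregulated and none was downregulated, beside 4.53% and 0.821% of all genes. Cdkn1a, the p21 inhibitor that both factors activate, was at 5.38, 6.49 and 3.97 CPM at 0 h PCS and 15.98, 27.4 and 50.9 CPM at 6 h PCS. It rose by 2.57 on the log2 scale (SE 0.42, adjusted p = 0.0087 in edgeR's quasi-likelihood test), and without 0 h replicate 1 the adjusted p was 0.052. Cdkn1b, the p27 inhibitor, was lower at 6 h PCS in each library, with a log2 fold change of -0.72 (adjusted p = 0.012) that missed the fold limit. The cyclin gene Ccnd2 had one of -0.11 (adjusted p = 0.747).

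**Figure D4:**
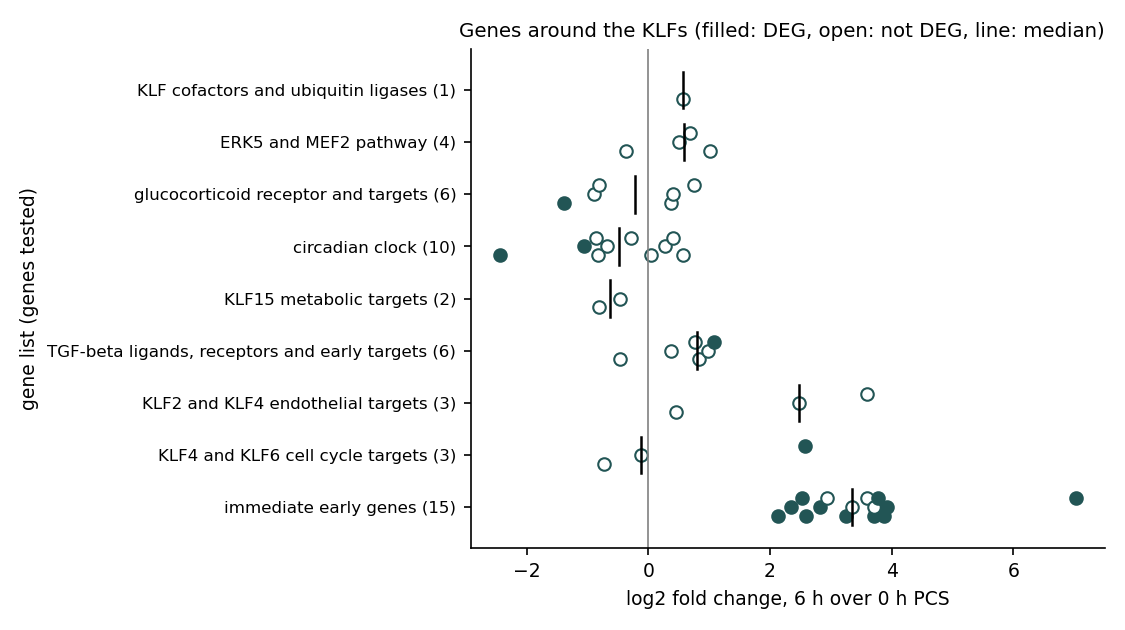
Log2 fold change of 6 h over 0 h PCS for each gene tested in the 9 lists of genes around the KLFs, with filled points for DEGs and a black line at each list's median. The immediate early genes lie at 2.13 or above, and the filled points below 0 are Fkbp5 in the glucocorticoid list and Tef and Ciart in the clock list.

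Genes whose pattern over the 6 libraries was most like that of a KLF gene were taken from 4373 named genes by Pearson's r of log2 CPM, as a description. The libraries fall into the time points, so a high r mostly follows that gap. Nearest to Klf2 were Dnajb1 (r = 0.998), a cochaperone of Hsp70, Gpkow (0.997) and Cdk5r1 (0.997). Klf4 was nearest to Cish (0.997), a feedback inhibitor of cytokine signaling, Esyt2 (0.997) and Homer1 (0.997).

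Klf6 was followed by Myd88 (r = 0.997), the adaptor of Toll-like receptors, Atf1 (0.994) and Rcan1 (0.993), an inhibitor of calcineurin. The list of Klf9 held Rhoj (0.999), Hspb6 (0.990) and Fam13c (0.989). That of Klf10 held Sntb2 (0.998), Cdkn1a (0.997) and Actg1 (0.997). The genes nearest to Klf15 were Kctd5 (0.998), Ccdc127 (0.996) and Xpc (0.995), a sensor of DNA damage, and each of them had a negative log2 fold change, of -1.08, -0.55 and -0.58.

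**Figure D5:**
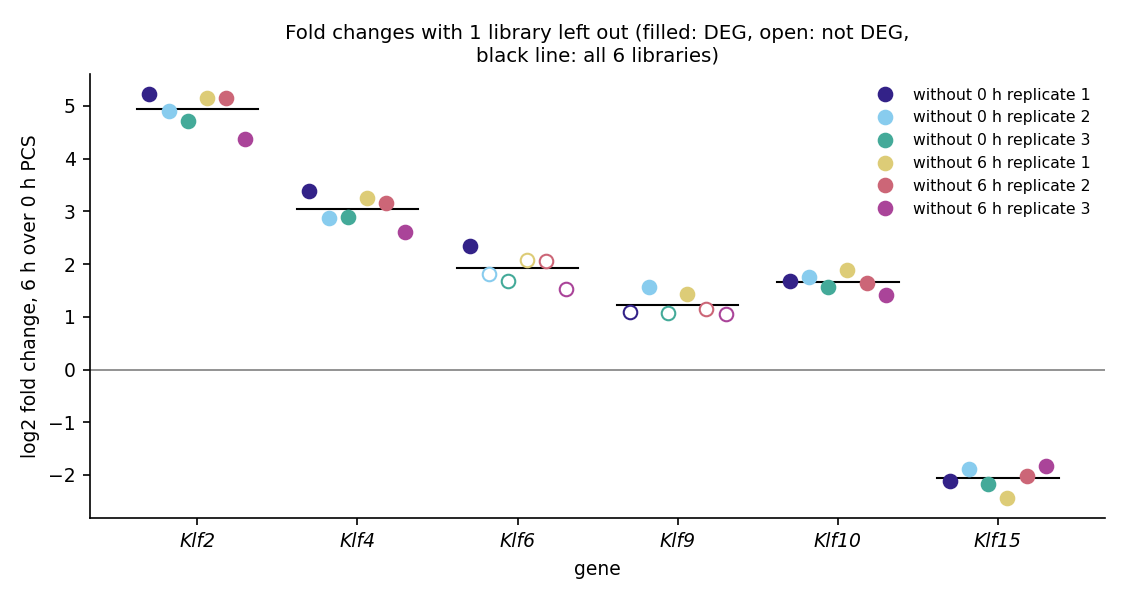
Log2 fold change of 6 h over 0 h PCS of each KLF gene with 1 of the 6 libraries left out, with filled points where the gene was a DEG, open points where it was not and a black line for the value with all libraries. Klf2, Klf4, Klf10 and Klf15 have filled points throughout, Klf6 has 1 filled point of 6 and Klf9 has 2.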

How the data were processed

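RNAseq was made from total RNA of lens capsules with ribosomal depletion and the Takara SMARTer Stranded Pico v2 kit. The authors aligned the read pairs (101 nt) with HISAT2 to GRCm38.p6 and counted them per Ensembl gene with HTSeq, and the deposited values are raw counts, 1 file per library. The strand setting of the counting is not given in the sources used here. Groups came from the time point labels.

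The counts were compared with edgeR 4.0.16 in R 4.3.3, with TMM scaling, the filter by group and robust dispersions. The test was the quasi-likelihood F-test in its earlier form, with Benjamini-Hochberg adjustment over 16810 genes. These steps follow the study, which used an older edgeR version. Its calls were not fully reproduced, since the study lists Egr1 as differentially expressed. The SE is the absolute log2 fold change divided by the square root of F. FPKM used total gene counts and the exon lengths the study lists. The fits were tested on simulated data. Intervals cover counting error only, since PCR reads carry no molecular identifiers.

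Members and gene lists were chosen with earlier results of these data known. Symbols came from the study's supplementary tables (6372 tested genes), so lists lean towards changed genes, and coordinates from RefSeq. In each list of genes around the KLFs the text names up to 3 DEGs with the largest changes and up to 2 other genes with the highest mean CPM. Nr3c1, Tsc22d3, Zbtb16, Dbp, Hlf and single marker genes were named after their values were seen. Genes most alike had a mean of at least 5 CPM, and log2 CPM used a prior count of 2. The SP genes, the sister family, and lens fiber markers had no matched identifier and were not analysed here.

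Alternatives were DESeq2 1.42.0, the exact test of edgeR, its newer quasi-likelihood method, no robust estimation, other scalings and filters, a test against a fold change of 2, a replicate block, FPKM on TMM sizes and leaving out libraries. Columns of fold changes and p-values that the authors list in their tables were not used in the fits.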

Additional observations from a re-analysis of the deposited data

How the results depend on the processing

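The 6 KLF genes kept their direction in each of 18 alternatives, and 92 of the 108 values remained DEGs. A test against a fold change of 2 left 3 of the 6, Klf2, Klf4 and Klf15, and called 217 genes up and 4 down in all. With 1 library left out, 4 to 5 of the 6 were DEGs. Without a low-count filter Klf6 had an adjusted p of 0.135, and all genes split into 510 up and 43 down without 0 h replicate 1. Leaving out 0 h replicate 1 and 6 h replicate 3 together, an alternative chosen after seeing the data, left 5 of the 6 and 379 genes up and 21 down. The other KLF genes had 1 DEG, Klf7, under each alternative.

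The replicate numbers do not pair the samples by the labels. Deviations of same-numbered libraries correlated at 0.0037, 0.223 and 0.139 for replicates 1 to 3. For 0 h replicates 2 and 3 the same-numbered 6 h library was the closest, and across these numbers the values were -0.161 and -0.191. Values of 0 h replicate 1 ran from -0.034 to 0.023, the highest with 6 h replicate 3. Whether same-numbered pools hold eyes of the same mice was not tested. With a replicate block 5 of the 6 KLF genes were DEGs, Klf6 having an adjusted p of 0.110, and 888 genes were up and 162 down.

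Of genes that were not DEGs, Klf3 ran from -0.20 to 0.093, Klf8 from -1.08 to 0.26 and Ccnd2 from -0.23 to 0.061 on the log2 scale with 1 library, or 0 h replicate 1 and 6 h replicate 3, left out, and Nr1d1 was at -0.028 with library size scaling. The causes were not tested. Exon lengths of an annotation were not run as an alternative. Depth limits the 0 h level of Klf2, at 29 to 61 counts, and that of Klf8.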
